A study of Mus musculus with 6 samples.

Results

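The messages described here encode the cytosolic heat shock proteins, their co-chaperones and the chaperonin CCT. They are a fixed list of 40 gene symbols, all 40 of which were found among the 55376 genes of the count table. The list holds 7 HSP70 and HSP110 genes, 2 HSP90 genes, 8 HSP40 genes, 6 small heat shock genes, 2 heat shock factors, 7 co-chaperones and the 8 CCT subunits. A filter on low counts kept 39 of them among 18054 genes tested; Hspb7, with 2 to 25 counts per library, did not pass it. RNA came from sorted muscle stem cells of C57BL/6 mice aged 3 months, with no genotype or treatment named. CPEB4 RIP is RNA pulled down with an antibody to the RNA-binding protein CPEB4, IgG RIP is RNA pulled down with nonspecific antibody, and input is total RNA, each with 2 libraries of full-length cDNA. The labels name no animals or pools, so the p-values rest on the spread between libraries, which may be technical in part. Total counts ran from 9018323 to 20843042 per library. Pearson's r of log2 CPM between the 2 libraries of a group, across 18054 genes that are not independent, was 0.981 in CPEB4 RIP, 0.975 in input and 0.873 in IgG RIP. The IgG RIP value was the lowest of all pairs of libraries. Each IgG RIP library correlated more closely with the libraries of the other groups, at 0.891 to 0.939. Across the 39 members tested, r of the IgG RIP pair was 0.991. The stem cell gene Pax7 stood at 289.7 and 265 CPM after CPEB4 RIP, 189 and 282 after IgG RIP, and 151 and 174 in the input, and Myf5 and Myod1, its partners in the lineage, were at 1172 to 4794 and 750.5 to 1025 CPM. Of the 8 muscle stem cell markers, Vcam1 fell over IgG (-0.87 (SE 0.12, adjusted p = 0.0117)) and over input (-1.18 (SE 0.12, adjusted p = 0.00267)), Calcr fell over input (-1.38 (SE 0.22, adjusted p = 0.00890)) and had -0.72 over IgG, and Sdc4 rose over input (0.52 (SE 0.10, adjusted p = 0.0161)). The summed CPM of erythroid, fibro-adipogenic and leukocyte markers was highest in both CPEB4 RIP libraries, though not every gene shared this, with Ptprc at -1.70 over IgG (adjusted p = 0.140); the 4 erythroid genes summed to 641 and 318 CPM after CPEB4 RIP, 85.6 and 142 after IgG RIP and 106 and 175 in the input. In bulk RNA fewer cells of a type and less RNA per cell cannot be told apart, and the part of such cells in the results was not tested. Where a pair of values is given for a group, replicate 1 comes first.

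HSP70 proteins bind exposed hydrophobic stretches of unfolded chains. HSP40 (J-domain) proteins bring them clients and stimulate their ATPase, while HSP110 and BAG proteins release the nucleotide. Stip1 passes clients on to HSP90, which matures kinases and steroid receptors together with Cdc37, Ahsa1 and Ptges3. Small heat shock proteins hold unfolding chains without ATP, and CCT is a barrel of 8 different subunits that folds actin and tubulin. The heat shock factor Hsf1 drives many of these genes under stress, and taking muscle apart to sort its stem cells is known to induce several of them. CPEB4 binds the cytoplasmic polyadenylation element of messages and regulates their translation.

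Values below are CPM, counts relative to the library total with TMM scaling, and they compare libraries for the same gene. FPKM, the deposited values per kilobase of gene model, is used where genes are compared with each other. By mean FPKM over the 6 libraries the most abundant members were Hsp90ab1 (1324), Hspb1 (1229), Hspa8 (1180.3), Dnajb1 (857), Hsp90aa1 (783) and Cryab (682). The next, Ptges3, was at 188 FPKM. The 8 CCT subunits lay between 31.0 (Tcp1) and 164 (Cct5) FPKM, and Hsf1 and Hsf2 were at 6.69 and 3.66.

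**Figure D1:**
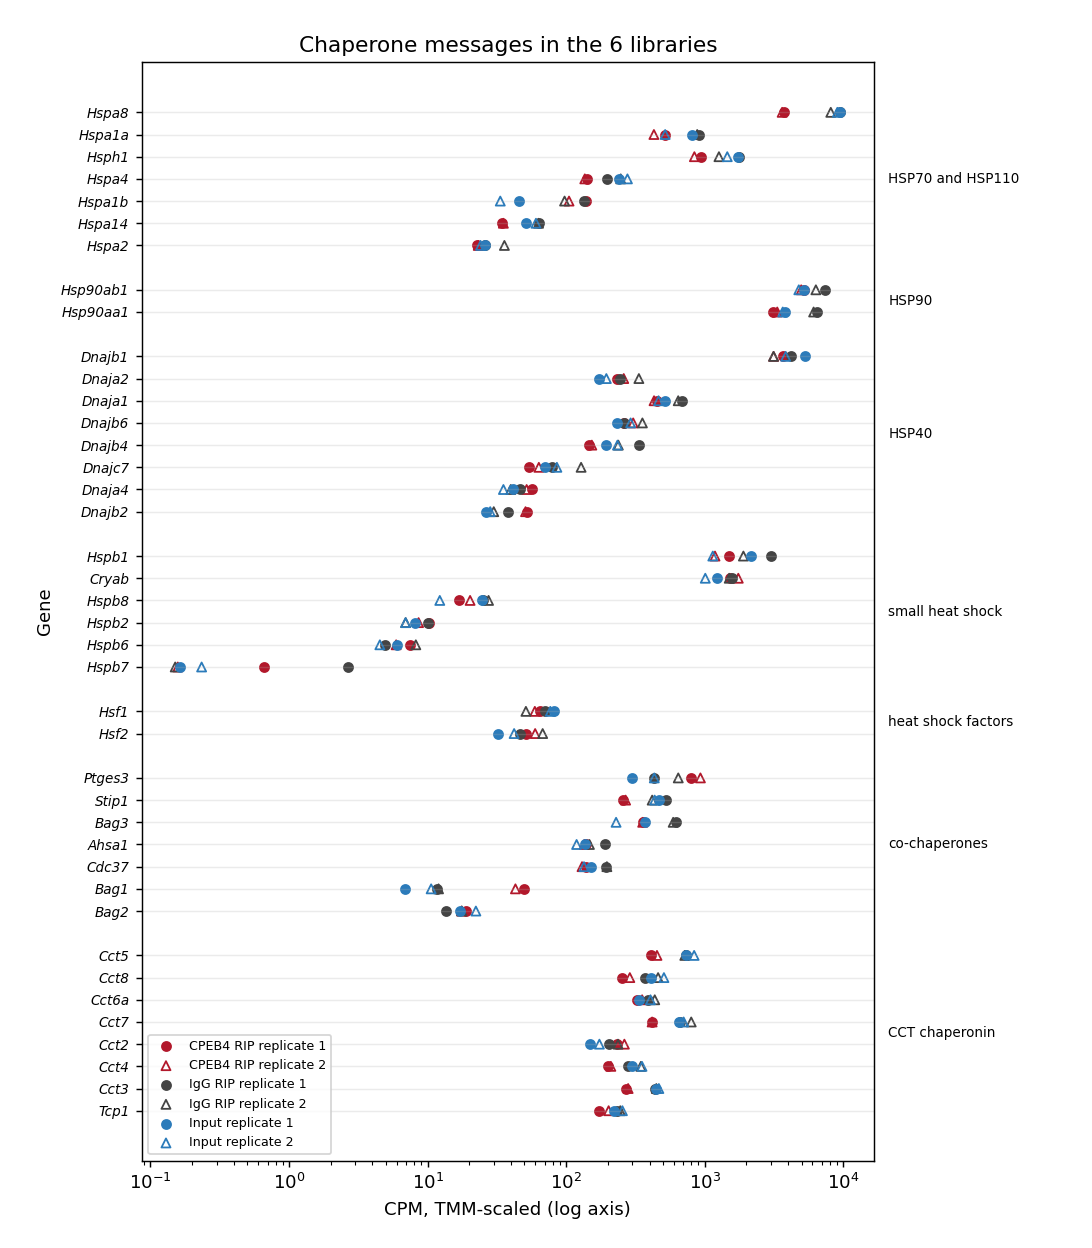
TMM-scaled CPM on a log axis for the 40 members, grouped by family and ordered by mean FPKM within it; colours are groups, filled circles replicate 1 and open triangles replicate 2. Hspa8, Stip1, Cct3, Cct5 and Cct7 have both CPEB4 RIP libraries below the other 4, and Bag1 and Ptges3 have both above them.

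The comparison with IgG RIP asks which messages stood higher in RNA pulled down with the CPEB4 antibody than with a nonspecific one. Values are relative to each library, so a lower one does not show that less of a message was recovered. In this comparison more chaperone messages were lower than higher in CPEB4 RIP. Of 39 members tested, 1 rose, 11 fell and 27 did not pass the quasi-likelihood test of edgeR, with the adjusted p set at 0.05. Over all genes 4.79% rose and 3.42% fell, 8.21% in all. The members' median log2 fold change was -0.42, beside -0.07 for all genes tested. Both CPEB4 RIP libraries were below both IgG RIP libraries for 24 members and above them for 4; over all genes the shares were 25.5% and 29.4%. Against input, which shares the CPEB4 RIP libraries with the first comparison, 5 members rose and 10 fell, with a median of -0.13 beside -0.06 for all genes. There 8.0% of all genes rose and 4.70% fell, 12.7% in all. Both CPEB4 RIP libraries were above both input libraries for 10 members (34.4% of all genes) and below them for 19 (37.6%).

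Between the backgrounds, IgG RIP against input, 0 of 39 members and 0% of all genes passed in edgeR. At an unadjusted p under 0.05 10 members were higher and 0 lower, and DESeq2's Wald test called 4 higher and 0 lower. Of all 18054 genes, 1372 were higher and 1178 lower at that unadjusted p, and DESeq2 called 427 and 279. The members' median there was 0.32, beside 0.05 for all genes. Without IgG RIP replicate 1 edgeR called 7 members higher and 2 lower, and without replicate 2 5 higher and 0 lower; over all genes these fits called 2301 higher and 4356 lower of 20834, and 607 and 1132 of 21118. Both IgG RIP libraries were above both input libraries for 17 members (21.4% of all genes) and below them for 1 (20.7% of all genes). Members higher in the IgG background than in input thus outnumbered those lower, and values against each background are given side by side below.

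The number of calls moved with the libraries fitted and with a length offset, for members and for all genes. A group left with 1 library was assumed to vary like the others. Without CPEB4 RIP replicate 1, or without replicate 2, 0 members passed against IgG; over all genes 193 rose and 11 fell in the first of these fits and 0 in either direction in the second. With either input library left out fewer of all genes rose and fell against IgG, and fewer members fell. Without IgG RIP replicate 1 the counts were 4 and 14, and without replicate 2 they were 3 and 14; over all genes they were 4913 and 2797 of 20834, and 3914 and 3491 of 21118. Against input fewer members rose and fewer fell with a CPEB4 RIP or an input library left out, and the same held for all genes. More rose and more fell, of members and of all genes, with either IgG RIP library left out. Short gene models had higher fold changes over IgG than long ones, with a median of 0.32 in the shortest of 4 equal bins of all genes tested and -0.31 in the longest. With an offset that removes this trend in each library, 1 member rose and 3 fell against IgG, and 3 rose and 3 fell against input; over all genes 340 and 197 were called against IgG and 1074 and 407 against input. The members' median over IgG was -0.39 under that offset. Scaled by library size alone, the median of all genes moved to -0.15 over IgG and -0.27 over input; then 903 of all genes rose and 1026 fell over IgG, in place of 864 and 618, and 1093 rose and 1409 fell over input, in place of 1445 and 849. The members' counts were then 1 rose and 16 fell over IgG, and 3 rose and 11 fell over input.

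**Figure D2:**
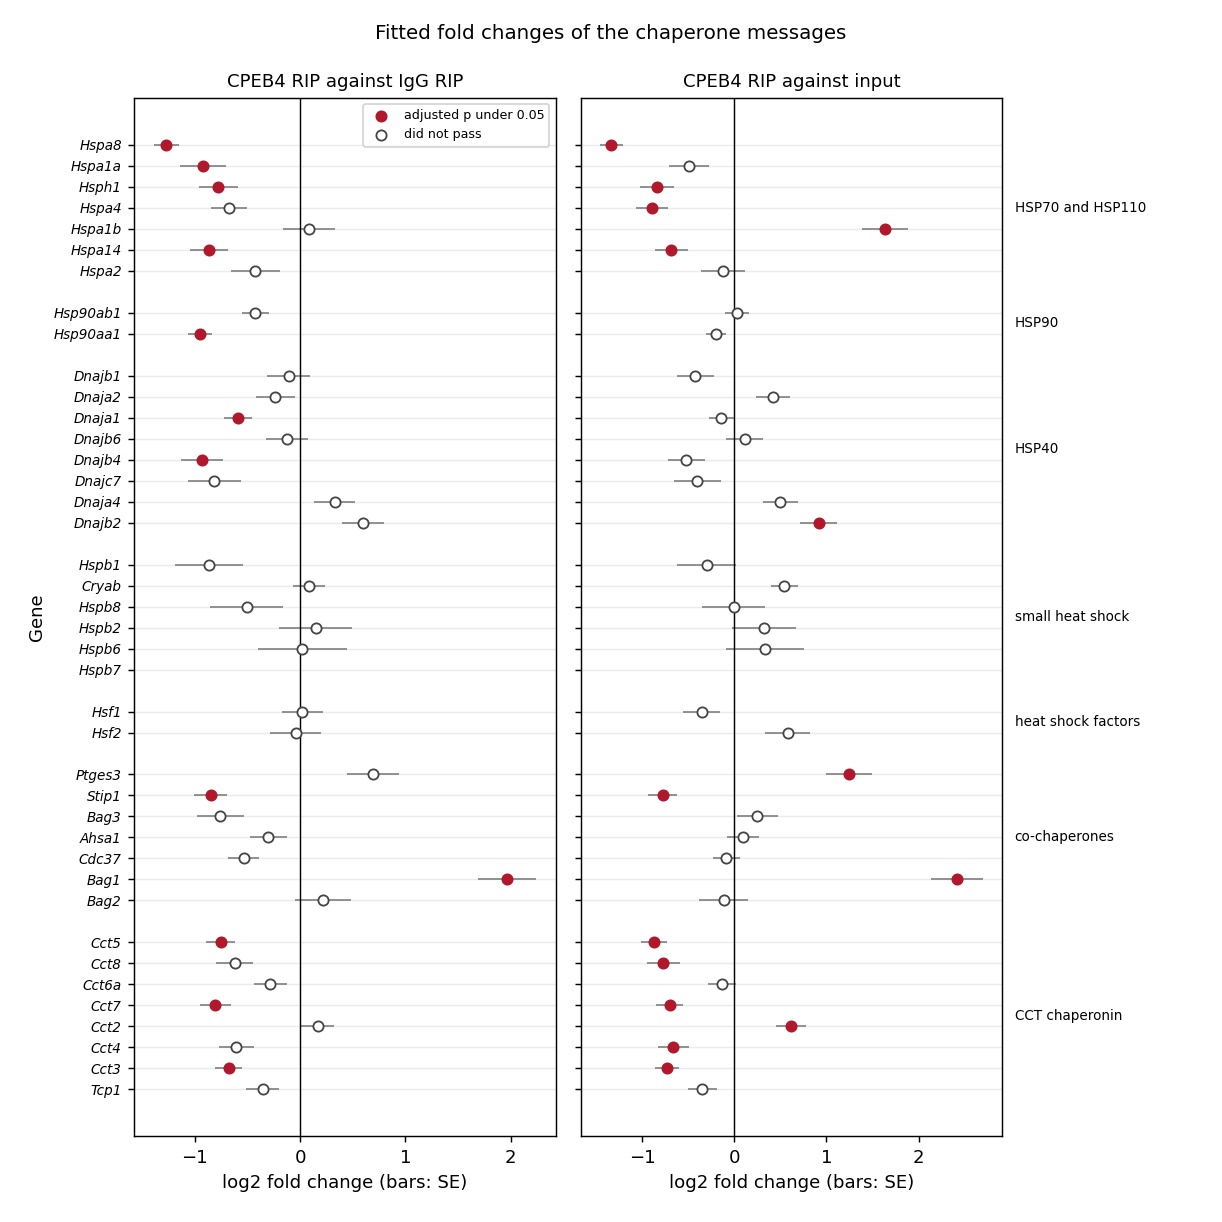
Log2 fold change of CPEB4 RIP against IgG RIP (left) and against input (right) for the 39 members tested, with bars of 1 SE; Hspb7 has no value. Filled points passed an adjusted p of 0.05: 1 to the right and 11 to the left of 0 against IgG, 5 and 10 against input.

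The HSP70 and HSP110 group had the lowest median over IgG of the 7 families. Of 7 members 4 fell against IgG (median -0.77), and 4 fell and 1 rose against input (median -0.68). None rose against IgG in edgeR, with 0 higher at an unadjusted p under 0.05 and 0 by DESeq2. With either CPEB4 RIP library left out 0 of them passed against IgG. Hspa8, the constitutive cytosolic HSP70, stood at 3709.7 and 3624 CPM after CPEB4 RIP, 9531 and 8132 after IgG RIP, and 9401 and 9070.4 in the input. Both CPEB4 RIP libraries were far below the other 4, which did not separate into groups. Its log2 fold change was -1.27 (SE 0.12, adjusted p = 0.00719) over IgG and -1.33 (SE 0.12, adjusted p = 0.00198) over input, which is 2.41-fold and 2.52-fold lower. Hspa8 lies at chr9:40801276-40805202 (GRCm38, the mm10 assembly), where RefSeq also places small nucleolar RNA genes, listed at 0 counts in these libraries. Over IgG it was -1.08 (0.0557) without CPEB4 RIP replicate 1 and -1.20 (0.146) without CPEB4 RIP replicate 2, with the adjusted p in brackets, and over input -1.25 (0.0550) without CPEB4 RIP replicate 2; with the length offset it passed against both.

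Hsph1, the HSP110 nucleotide exchange factor, stood at 935 and 843 CPM after CPEB4 RIP, 1775 and 1268 after IgG RIP, and 1726 and 1456 in the input. The CPEB4 RIP pair lay below the rest, and IgG RIP and input overlapped. It fell by 0.77 over IgG (adjusted p = 0.0471) and by 0.84 over input (adjusted p = 0.0273) on the log2 scale. Without IgG RIP replicate 1 the fold over IgG was -0.33 (adjusted p = 0.168), and with DESeq2 size factors the adjusted p was 0.0514. Hspa14, a ribosome-associated HSP70, was at 34.3 and 35.3 CPM after CPEB4 RIP, 63.3 and 63.3 after IgG RIP, and 51.0 and 60.6 in the input. It fell against IgG, at -0.86 (SE 0.18, adjusted p = 0.0312), and against input, at -0.68 (SE 0.18, adjusted p = 0.0467). Hspa4, a relative of HSP110, was at 142 and 136 CPM after CPEB4 RIP, 196 and 248 after IgG RIP, and 239 and 277 in the input. Its fold over input was -0.89 (SE 0.17, adjusted p = 0.0161), and over IgG -0.67 (SE 0.17, adjusted p = 0.0528), just short of the threshold although the groups did not overlap. Hspa2, the HSP70 best known from the testis, had folds of -0.42 over IgG and -0.12 over input and passed in neither comparison. Hsph1 and Hspa14 passed against neither background without a CPEB4 RIP or an input library (adjusted p from 0.0797 to 0.481), nor with the length offset. The offset folds over IgG and input were -0.63 (0.107) and -0.59 (0.102) for Hsph1 and -0.89 (0.0638) and -0.55 (0.149) for Hspa14. Hsph1 over IgG also did not pass with the 4 libraries compared alone (0.0991), nor Hspa14 over input with no low-count filter (0.225). Hspa4 over input did not pass without CPEB4 RIP replicate 1 (0.158), replicate 2 (0.288) or input replicate 2 (0.0806), or with the length offset (-0.73, 0.0803).

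Hspa1a and Hspa1b, the stress-inducible HSP70 pair, encode nearly the same protein and lie close together on chromosome 17, at chr17:34969359-34972156 and chr17:34956429-34959238. The stretch upstream of their start sites is shown because it carries the heat shock element, the binding motif of the heat shock factors, and because the copies cannot be told apart there. The lines below also give Hspb1 and Dnajb6, members with more elements than this pair. Hsph1 and Dnaja4 also hold more and are not shown. Sequences are from RefSeq's table on GRCm38.p6, written 5′ to 3′ in the direction of the gene, with elements in capitals.
Hspa1a, chr17:34972217-34972296, minus strand: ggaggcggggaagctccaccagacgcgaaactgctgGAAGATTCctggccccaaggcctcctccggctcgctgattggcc
Hspa1b, chr17:34959299-34959378, minus strand: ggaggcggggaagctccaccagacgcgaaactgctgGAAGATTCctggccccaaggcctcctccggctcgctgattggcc
Hspb1, chr5:135887779-135887858, plus strand: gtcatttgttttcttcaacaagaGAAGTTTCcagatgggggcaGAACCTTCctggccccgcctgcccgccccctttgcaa
Dnajb6, chr5:29735818-29735897, plus strand: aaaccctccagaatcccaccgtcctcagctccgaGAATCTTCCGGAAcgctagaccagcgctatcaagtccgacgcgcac
The first 3 windows run from 140 to 61 bases before the start and that of Dnajb6 from 80 bases before it to the last base before it. The Hspa1a and Hspa1b windows were identical at 80 of 80 bases, and their whole 300-base promoters at 296. Their element begins 104 bases before the start in both.

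The element was searched as 2 inverted units, GAANNTTC or TTCNNGAA, each of which reads the same on both strands, in windows from 250 bases before to 50 after each start. It occurred in the promoters of 15 of 33 members with an entry (45.5%) and of 17.0% of all 27025 genes in the table, counting a gene when any of its starts had it. The form with 3 units, GAANNTTCNNGAA or TTCNNGAANNTTC, which holds an overlapping pair of the shorter ones, occurred in 2 members, Hsph1 and Dnajb6, and in 0.662% of all genes. Of the members that fell against IgG, 9 had an entry and 5 held the element; of the other 24 it was 10. Hspa8, Hsp90aa1, Hsp90ab1, Cryab, Hspb2, Hsf1 and Cct4 had no entry. A match describes letters only, and the libraries measure RNA that was pulled down, not transcription.

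The copies had different values. Hspa1a stood at 516 and 430.3 CPM after CPEB4 RIP, 908 and 884 after IgG RIP, and 814 and 519 in the input, and Hspa1b at 140.1 and 105 CPM after CPEB4 RIP, 134 and 97.5 after IgG RIP, and 45.5 and 33.5 in the input. Hspa1a was lowest in CPEB4 RIP and fell against IgG, at -0.92 (SE 0.22, adjusted p = 0.0453), but did not pass against input (-0.49, adjusted p = 0.189). Hspa1b overlapped between CPEB4 RIP and IgG RIP (0.08, adjusted p = 0.854) and rose 3.10-fold over input, at 1.63 (SE 0.25, adjusted p = 0.00769). It was also 1.55 higher in IgG RIP than in input on the log2 scale, with an adjusted p of 0.160 in edgeR and 3.65e-06 in DESeq2's Wald test. Hspa1b made up 21.4 and 19.6% of the pair's CPM after CPEB4 RIP, 12.8 and 9.94% after IgG RIP and 5.29 and 6.07% in input, so the 3 groups did not overlap. The pair together had 656 and 535 CPM after CPEB4 RIP, 1042 and 981 after IgG RIP and 859.6 and 552 in input. The sources used here do not say how reads matching both copies were counted, and each copy's value is uncertain. Hspa1a no longer passed over IgG when CPEB4 RIP replicate 1 was left out (adjusted p = 0.259) or 2 (0.438), or with the length offset (0.0714), where its fold was -0.98, and Hspa1b no longer passed over input without input replicate 2 (0.0650).

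Both HSP90 messages were below IgG RIP in both CPEB4 RIP libraries, and Hsp90aa1 passed the test. Hsp90aa1, the stress-inducible HSP90 alpha, stood at 3134 and 3340.4 CPM after CPEB4 RIP, 6424 and 6115 after IgG RIP, and 3770.1 and 3660.0 in the input. It was 1.94-fold lower than in IgG RIP, at -0.95 (SE 0.11, adjusted p = 0.00823), but over input its fold was -0.20 (SE 0.11, adjusted p = 0.295). The IgG RIP pair stood farthest from the others, at 0.76 over input (adjusted p = 0.153 in edgeR and 2.89e-05 in DESeq2). Both CPEB4 RIP libraries also lay below both input libraries. Hsp90ab1, the constitutive HSP90 beta, was at 5251 and 4975 CPM after CPEB4 RIP, 7376 and 6348 after IgG RIP, and 5242 and 4779.9 in the input, with folds of -0.42 (SE 0.13, adjusted p = 0.0811) over IgG and 0.03 (SE 0.13, adjusted p = 0.907) over input. The FPKM of Hsp90aa1 relative to Hsp90ab1 within a library was 0.455 and 0.512 after CPEB4 RIP, 0.664 and 0.735 after IgG RIP and 0.549 and 0.584 in input, with CPEB4 RIP lowest. Over IgG, Hsp90aa1 was -0.70 (0.142) without CPEB4 RIP replicate 1 and -0.95 (0.186) without CPEB4 RIP replicate 2, so its call was lost in both fits; it kept its call with the length offset (0.0378).

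Among the 8 HSP40 messages 2 fell against IgG (median -0.18) and 1 rose against input (median -0.01). Dnajb1, the most abundant and the main stress-inducible J protein, was at 3695 and 3144 CPM after CPEB4 RIP, 4222 and 3141 after IgG RIP, and 5312 and 3842 in the input. Its libraries overlapped between CPEB4 RIP and IgG RIP, with -0.11 (SE 0.20, adjusted p = 0.770), and over input it was at -0.42 (SE 0.20, adjusted p = 0.228). Dnaja1, a farnesylated partner of HSP70, was at 456 and 431 CPM after CPEB4 RIP, 691 and 644 after IgG RIP, and 514 and 465 in the input and fell against IgG, at -0.59 (SE 0.13, adjusted p = 0.0405). Dnajb4, a relative of Dnajb1, was at 147 and 153 CPM after CPEB4 RIP, 336 and 238 after IgG RIP, and 195 and 235 in the input and fell as well, at -0.93 (SE 0.20, adjusted p = 0.0334). For both, IgG RIP lay above input, and the folds over input were -0.14 and -0.52 (adjusted p = 0.528 and 0.138). Dnajb2, a J protein that handles ubiquitinated clients, went the other way, at 52.1 and 51.0 CPM after CPEB4 RIP, 38.2 and 30.1 after IgG RIP, and 26.3 and 28.3 in the input. It rose over input, at 0.92 (SE 0.20, adjusted p = 0.0266), and both its CPEB4 RIP libraries were above IgG RIP, at 0.60 (SE 0.20, adjusted p = 0.112). Dnaja2 (-0.23), Dnaja4 (0.33), Dnajb6 (-0.12) and Dnajc7 (-0.81), an HSP70 and HSP90 adaptor, passed against neither background. The Dnaja1 and Dnajb4 calls were lost with either CPEB4 RIP library or either input library left out (adjusted p from 0.0966 to 0.516) and with the 4 libraries compared alone (0.0631 and 0.0742). With the length offset they were at -0.39 (0.192) and -0.72 (0.0948). That of Dnaja1 was also lost without IgG RIP replicate 1 (0.136) and with no low-count filter (0.132). The Dnajb2 call over input was lost with either library of those same groups left out (0.142 to 0.226) and with library size alone (0.0719).

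Small heat shock messages did not pass in any of the 3 comparisons in the edgeR fit of all 6 libraries. Against IgG 1 of 5 tested had an unadjusted p under 0.05, Hspb1, which DESeq2 called lower; against input it was 1, Cryab, which DESeq2 called higher. Between IgG RIP and input 1 was higher at an unadjusted p under 0.05 and DESeq2 called 0. Without IgG RIP replicate 2 edgeR called 2 lower over IgG, 1 higher over input and 2 higher between IgG RIP and input, and without replicate 1 it called 1 higher over input. With no low-count filter it called 1 lower over IgG and 1 higher over input, and with the 4 libraries compared alone 1 higher over input. Hspb1 (HSP27), an actin-associated holdase, was at 1498 and 1187 CPM after CPEB4 RIP, 2987 and 1903 after IgG RIP, and 2159 and 1145 in the input. Its replicates differed widely in IgG RIP and input, and the fold over IgG was -0.86 (SE 0.32, adjusted p = 0.139). Cryab, alpha B-crystallin, was at 1522 and 1748 CPM after CPEB4 RIP, 1579 and 1504 after IgG RIP, and 1234 and 1010.5 in the input, with 0.08 (SE 0.15, adjusted p = 0.746) over IgG and 0.54 (SE 0.15, adjusted p = 0.0541) over input. Hspb2, which shares its locus with Cryab, had 89 to 164 counts per library; RefSeq places the whole of Hspb2 within the span of Cryab, so the counts of Hspb2 are uncertain. Hspb6 (0.02 over IgG), known from heart and smooth muscle, and Hspb8 (-0.51), the partner of Bag3, stood at 27.6 CPM or less in each library. The genes are also abundant in mature muscle, whose markers were low but present. The 10 myofibre markers summed to 233 and 182 CPM after CPEB4 RIP, 120.5 and 154 after IgG RIP and 129 and 175 in the input. Myh2 was at 0 counts in IgG RIP replicate 2. Of 9 tested, 3 rose and 0 fell over IgG in edgeR, and 1, Myh4 (-1.28, adjusted p = 0.151), was lower at an unadjusted p under 0.05. Fitted folds over IgG were above 0 for 7 of the 9 and below 0 for 2. The 6 smooth muscle and pericyte markers summed to 813 and 619.8 CPM after CPEB4 RIP, 677 and 1057 after IgG RIP and 636 and 782 in the input, and 0 of 6 passed over IgG in edgeR, with 1 higher and 1 lower at an unadjusted p under 0.05 and 0 higher and 1 lower by DESeq2. The part of these cells in the small heat shock levels was not tested.

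Hsf1, the main heat shock factor, was at 64.4 and 59.5 CPM after CPEB4 RIP, 70.8 and 51.3 after IgG RIP, and 81.2 and 76.9 in the input. Hsf2, its relative, was at 51.4 and 59.8 CPM after CPEB4 RIP, 46.7 and 67.7 after IgG RIP, and 32.2 and 42.2 in the input. Over IgG the folds were 0.02 and -0.04, with SE of 0.20 and 0.24, and neither passed against any background in the fit of all 6 libraries. In DESeq2 neither was called over IgG or input; at an unadjusted p under 0.05 the count was 0 over IgG and 1, Hsf2, over input (0.58). Other edgeR fits called Hsf2 higher over input, with either IgG RIP library left out and with the 4 libraries compared alone, and the last also called Hsf1 lower. Between IgG RIP and input 1 was called higher and 1 lower without IgG RIP replicate 1.

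The co-chaperones went in both directions. Bag1, a nucleotide exchange factor of HSP70 that links it to the proteasome, had the widest change of any member. It was at 49.7 and 43.1 CPM after CPEB4 RIP, 11.7 and 12.0 after IgG RIP, and 6.85 and 10.6 in the input, from 600 and 820 counts in CPEB4 RIP and 110 to 159 in the other libraries. Both CPEB4 RIP libraries were at least 43.1 CPM and all others at most 12.0. It rose 3.90-fold over IgG, at 1.97 (SE 0.28, adjusted p = 0.0117), and 5.33-fold over input, at 2.41 (SE 0.28, adjusted p = 0.00343), and lies at chr4:40936398-40948294. Over IgG it was 2.07 (0.0628) without CPEB4 RIP replicate 1 and 2.12 (0.157) without CPEB4 RIP replicate 2, where its call was lost. Over input it kept its call in each of the 13 other settings. Its gene model is 0.351 times the median length of genes tested, and with the length offset it was 1.74 over IgG (adjusted p = 0.0398). The other BAG members did not share this pattern. Bag2 had 0.22 (SE 0.27, adjusted p = 0.636) over IgG, and Bag3, the stress-inducible partner of Hspb8, had -0.76 (SE 0.22, adjusted p = 0.0770). Outside the members, Bag4, Bag5 and Bag6 had -0.85, -0.40 and 0.37 over IgG, and none of them passed. Bag3 stood at 361 and 357 CPM after CPEB4 RIP, 621 and 593 after IgG RIP, and 373 and 229 in the input, so that IgG RIP alone was high, at 1.01 (SE 0.22, adjusted p = 0.199) over input.

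Stip1 (HOP), which bridges HSP70 and HSP90, was at 258 and 269 CPM after CPEB4 RIP, 529.9 and 418 after IgG RIP, and 467 and 436 in the input. The CPEB4 RIP pair lay below the other 4 libraries, and Stip1 fell on the log2 scale by 0.85 over IgG (adjusted p = 0.0228) and by 0.78 over input (adjusted p = 0.0201). Ptges3 (p23), which binds the closed HSP90 clamp, went the other way, at 800.1 and 932 CPM after CPEB4 RIP, 429.6 and 645 after IgG RIP, and 297 and 433 in the input. It rose over input, at 1.25 (SE 0.25, adjusted p = 0.0188), and both CPEB4 RIP libraries were above both IgG RIP libraries, at 0.69 (SE 0.25, adjusted p = 0.127). Cdc37, the kinase adaptor of HSP90, and Ahsa1, its ATPase activator, had folds over IgG of -0.54 and -0.30 and over input of -0.09 and 0.10, and neither passed. The partners of HSP90 were thus spread from -0.85 to 0.69 over IgG. The Stip1 call over IgG was lost with either CPEB4 RIP library or either input library left out (adjusted p from 0.0800 to 0.328) and over input likewise (0.103 to 0.264), but it passed against both with the length offset. Over IgG it also did not pass with the 4 libraries compared alone (0.0618). Ptges3 over input was lost without CPEB4 RIP replicate 2 (0.157) or input replicate 1 (0.0873) and with the length offset (1.23, 0.0509).

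Of the 8 CCT subunits, which assemble in equal numbers, 3 fell against IgG (median -0.61) and 5 fell and 1 rose against input (median -0.68). Both CPEB4 RIP libraries were below both IgG RIP libraries for 7 of the 8. Cct5 was at 407 and 453 CPM after CPEB4 RIP, 730.1 and 719 after IgG RIP, and 729 and 839 in the input. Cct7 was at 419 and 418 CPM after CPEB4 RIP, 661 and 799.8 after IgG RIP, and 655 and 705 in the input. Cct3 was at 271 and 280.3 CPM after CPEB4 RIP, 435 and 448 after IgG RIP, and 446 and 467 in the input. In all 3, IgG RIP and input overlapped and CPEB4 RIP lay apart, with folds over IgG of -0.75 (SE 0.14, adjusted p = 0.0223), -0.80 (SE 0.14, adjusted p = 0.0204) and -0.68 (SE 0.13, adjusted p = 0.0243). Over input the same subunits were at -0.87, -0.70 and -0.73 (adjusted p = 0.00904, 0.0210 and 0.0127).

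Cct4 was at 201 and 210.3 CPM after CPEB4 RIP, 281 and 347 after IgG RIP, and 299 and 353 in the input, and Cct8 at 252 and 288 CPM after CPEB4 RIP, 369 and 461 after IgG RIP, and 412 and 508 in the input. Both fell over input, at -0.66 (SE 0.17, adjusted p = 0.0400) and -0.77 (SE 0.18, adjusted p = 0.0314), and narrowly did not pass over IgG, at -0.61 and -0.62 (adjusted p = 0.0660 and 0.0744). Tcp1 (-0.35 over IgG) and Cct6a (-0.28) passed against neither. Cct2 differed from the rest, at 233 and 263 CPM after CPEB4 RIP, 205 and 237 after IgG RIP, and 149.7 and 174 in the input, with the highest CPM in CPEB4 RIP replicate 2. It rose over input, at 0.62 (SE 0.16, adjusted p = 0.0459), and was at 0.17 (SE 0.16, adjusted p = 0.541) over IgG. Its FPKM relative to the median of the other 7 subunits in the same library was 1.47 and 1.67 after CPEB4 RIP, 0.823 and 0.785 after IgG RIP and 0.627 and 0.654 in input. This ratio was highest in both CPEB4 RIP libraries, and it was set up after the values were seen. Cct2 lies at chr10:117050997-117063852.

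The 3 calls over IgG were lost with either CPEB4 RIP library left out (adjusted p from 0.282 to 0.411) and with the length offset (0.0611 to 0.0965), and those of Cct3 and Cct5 with either input library left out (0.0531 to 0.0752); the folds under the offset were -0.82 for Cct5, -0.70 for Cct7 and -0.59 for Cct3. Over input all 6 calls were lost with either CPEB4 RIP library left out (0.109 to 0.426). With either input library left out all were lost (0.0580 to 0.203) except that of Cct5, which was lost without replicate 2 (0.0607) and kept without replicate 1 (0.0359). With the length offset Cct5 alone kept its call over input (0.0446), the others lying between 0.104 and 0.189 with folds of -0.52 (Cct3), -0.53 (Cct4), -0.47 (Cct7), -0.67 (Cct8) and 0.67 (Cct2). With no low-count filter the calls of Cct3 over IgG (0.0601) and Cct4 over input (0.102) were lost, and with library size alone that of Cct2 over input (0.0650). Tcp1, Cct6a, Cct7 and Cct8 each overlap a neighbouring protein-coding gene at an end of their span, and the sources used here do not say whether the counting used strand.

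**Figure D3:**
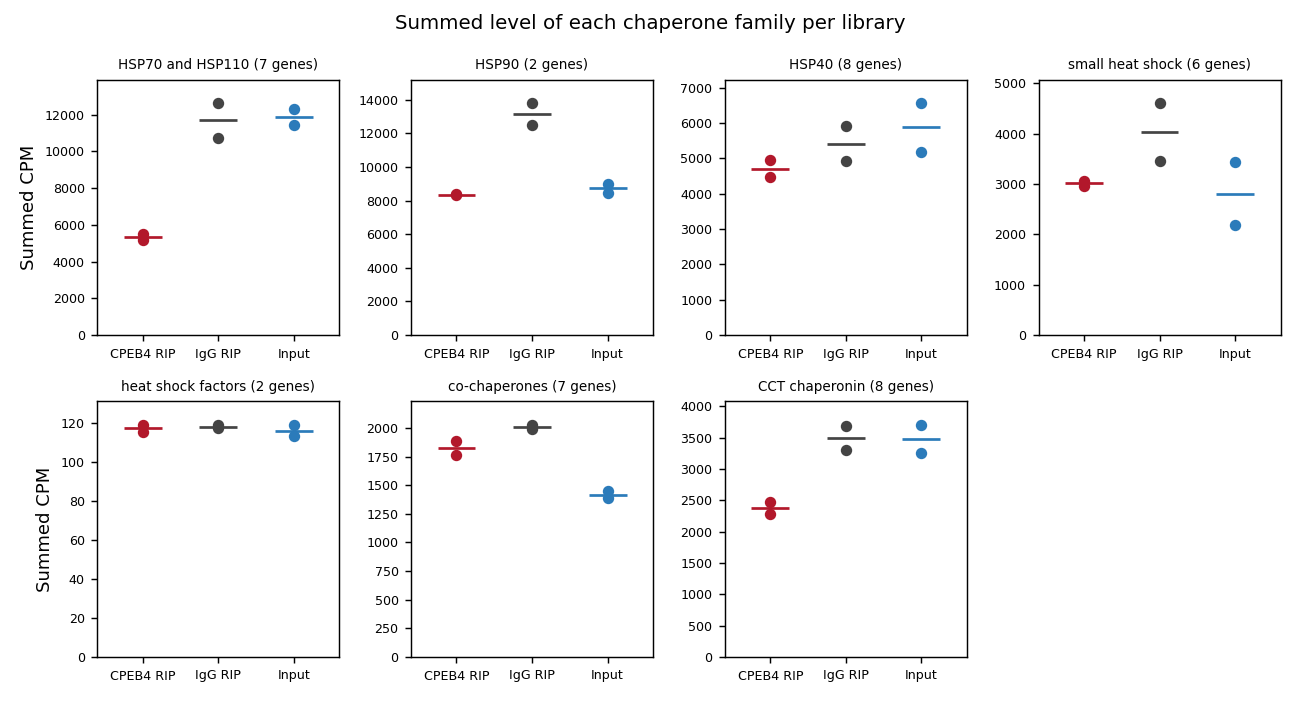
Summed TMM-scaled CPM of each family in each library (points) with the group mean (line), from 0 on a linear axis that differs between panels. The HSP70 and HSP110 sum is 5499.8 and 5197 CPM in CPEB4 RIP against 12633 and 10728 in IgG RIP, and the CCT sum 2281 and 2469 against 3305 and 3694.

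Summed over a family, the backgrounds stood apart in some families and overlapped in others. HSP70 and HSP110 messages, mostly Hspa8, summed to 5499.8 and 5197 CPM after CPEB4 RIP, 12633 and 10728 after IgG RIP and 12302 and 11440.3 in the input. CCT messages summed to 2281 and 2469 CPM after CPEB4 RIP, 3305 and 3694 after IgG RIP and 3249.6 and 3708 in the input. In both families CPEB4 RIP lay below the other groups, which overlapped each other. HSP90 messages summed to 8385 and 8315 CPM after CPEB4 RIP, 13801 and 12462 after IgG RIP and 9012 and 8440.0 in the input, so that IgG RIP was high and CPEB4 RIP lay just under input. Co-chaperones summed to 1765 and 1884 CPM after CPEB4 RIP, 1989.6 and 2029 after IgG RIP and 1448 and 1385 in the input, with the 3 groups apart and CPEB4 RIP between the others. HSP40 sums, mostly Dnajb1, overlapped between CPEB4 RIP (4956 and 4461 CPM) and IgG RIP (5919 and 4913). With 2 libraries a group the smallest two-sided p of an exact permutation test is 0.333, and no test of these sums was run.

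Other cytosolic chaperones and cofactors were taken from a list of 49 genes, of which 44 were tested. Against IgG 2 rose and 2 fell (median -0.12), and against input 9 rose and 1 fell (median 0.24). The genes that rose over IgG were Pfdn5, a subunit of prefoldin, which delivers actin and tubulin to CCT, and Hsbp1, an inhibitor of Hsf1. Pfdn5 was at 227 and 231 CPM after CPEB4 RIP, 106 and 121 after IgG RIP, and 107 and 104 in the input, with 1.01 (SE 0.15, adjusted p = 0.0128). Hsbp1 was at 344 and 349 CPM after CPEB4 RIP, 154 and 183 after IgG RIP, and 167 and 193 in the input, with 1.04 (SE 0.16, adjusted p = 0.0141). For both, the CPEB4 RIP pair lay well above all other libraries. Those that fell were Ahsa2, a relative of Ahsa1, at -0.86 (SE 0.17, adjusted p = 0.0284), and the HSP90 cofactor Ttc4, at -1.06 (SE 0.25, adjusted p = 0.0467).

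Prefoldin and CCT, which act on the same clients, are set side by side here, a choice made after the values were seen. Of the 6 prefoldin subunits, Pfdn1, Pfdn2, Pfdn5 and Pfdn6 rose over input (1.09, 1.07, 1.12 and 0.82), where 5 CCT subunits fell, and Vbp1 and Pfdn4 did not pass (adjusted p = 0.807 and 0.173). Over IgG they ranged from -0.43 (Vbp1) to 1.01. The gene models of these 4 prefoldin subunits are 0.289 to 0.504 times the median length, and those of CCT 0.666 (Cct2) to 1.76 (Cct7) times. With the length offset 0 of the 44 genes passed against IgG in edgeR, and 7 rose and 0 fell over input. Of the 8 prefoldin genes and CCT cofactors tested, 4 rose over input without the offset and 2 with it, while of the CCT subunits 1 fell and 0 rose with it. Over IgG and without the offset, 2492 of all genes were higher and 2346 lower at an unadjusted edgeR p under 0.05, and DESeq2 called 1541 and 1351. Of the 44 other chaperone genes 10 were higher and 6 lower over IgG at that p, and DESeq2 called 7 higher and 6 lower. Counts over IgG were 0 in both directions without CPEB4 RIP replicate 2. They were 11 higher and 6 lower without IgG RIP replicate 1 and 17 higher without replicate 2, and 0 were lower without CPEB4 RIP replicate 1, input replicate 1 or input replicate 2. Over input 5 were higher without CPEB4 RIP replicate 1, 0 without replicate 2, 1 without input replicate 1, 4 without input replicate 2 and 17 with either IgG RIP library left out.

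**Figure D4:**
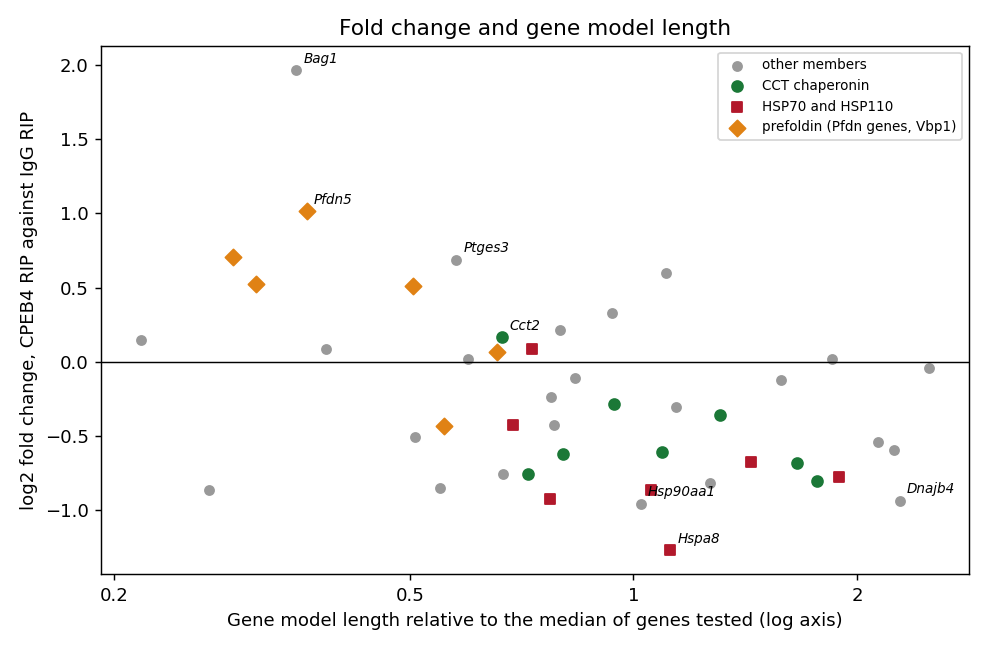
Log2 fold change over IgG RIP against gene model length relative to the median of genes tested (log axis), for the 39 members and 6 prefoldin subunits. Among short models, Bag1 (1.97) and Pfdn5 (1.01) lie high, Hspb2 (0.15) and Cryab (0.08) near 0 and Hspb1 (-0.86) low. Hspa8 (-1.27), near the median length, lies lowest.

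Within the 4 bins of gene length, members lay below the median of all genes in each bin against IgG. From shortest to longest the members' medians were 0.08, -0.26, -0.64 and -0.63 over 5, 16, 10 and 8 members, beside 0.32, -0.04, -0.10 and -0.31 for all genes. Against input members lay above all genes in the bin of 16 members (-0.04 beside -0.07) and below them in the others. For IgG RIP against input members lay above all genes in each bin, at 0.46, 0.31, 0.21 and 0.26 beside 0.19, 0.01, -4e-04 and 0.01. The values are descriptions with no test.

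Early response genes, which sorting also induces, are given beside the heat shock members. Of 14 tested, 4 fell against IgG (median -0.35), and 5 rose and 3 fell against input (median 0.29). None rose against IgG in edgeR, with 0 higher at an unadjusted p under 0.05 and 0 by DESeq2. Their summed level was 10584 and 10079 CPM after CPEB4 RIP, 14435 and 13355 after IgG RIP and 14763 and 12138 in the input. CPEB4 RIP was below the other groups in this sum, which overlapped each other. Whether cell isolation had a part in the chaperone levels was not tested.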

How the data were processed

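Per the submitters' processing notes, reads were handled with HISAT2 and featureCounts on mm10. For their versions, the annotation, strand handling and how multi-mapping reads were counted, nothing is given in the sources used here. The authors deposited raw counts per gene, which were tested, and FPKM values, which served only to set genes beside each other. Gene lengths came from the ratio of counts to FPKM. In R 4.3.3, edgeR 4.0.16 kept genes with filterByExpr (minimum count 10, minimum total 15), scaled libraries by TMM and fitted the 3 groups of 6 libraries together with 3 residual degrees of freedom. The quasi-likelihood test was two-sided, with Benjamini-Hochberg adjustment over all 18054 genes tested and a threshold of 0.05. The fit was tested on simulated data for CPEB4 RIP against IgG RIP. It found a simulated 2-fold change in 8% of cases, while a 4-fold change was found in 44%. False calls were 3.7% among 54. Most 2-fold changes were thus missed in that run, where 200 genes were changed. It made 54 calls among 16562 genes, beside 1482 among 18054 for CPEB4 RIP against IgG RIP in the main fit. The share of 2-fold changes found in the main fit was not tested. A member that did not pass may still have changed. Alternatives were DESeq2 1.42.0 (its size factors, and its Wald test), library size alone, no filter, a replicate block, a length offset (loess, span 0.3), the 4 libraries compared alone, and leaving out each library. Depth was 9018323 to 20843042 counts per library, without molecular identifiers, so counting error is a lower limit on the error.

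The members, families and gene lists were chosen with earlier results of these data known. Values in each library are given for members past the threshold over IgG RIP or input, the most abundant of each family by FPKM, and Hspa1a, Hspa1b and Hsf1; other members are given by fold. Up to 3 of the other chaperone genes with the smallest p in each direction are named. The shared replicate numbers were not taken as pairs, since the labels give no common source for them.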

Additional observations from a re-analysis of the deposited data

How the results depend on the processing

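No member's fold change turned its sign past the threshold under any alternative run. Over all genes DESeq2's Wald test called 1541 higher and 1351 lower against IgG RIP, beside 864 and 618 in the main fit. With no low-count filter these were 1508 and 920 of 45787 genes. Against input the 4 libraries compared alone called 3546 higher and 3794 lower of 16966 genes. For IgG RIP against input no filter called 287 higher and 170 lower. Against IgG RIP (1 higher, 11 lower), the Wald test gave 2 and 19 members, no low-count filter 2 higher, and the length offset 3 lower. Leaving out each library gave 0 to 4 higher and 0 to 14 lower. Against input (5 higher, 10 lower), library size alone gave 3 higher, the length offset 3 and 3, and the 4 libraries compared alone 9 higher; leaving out each library gave 2 to 9 higher and 0 to 12 lower. For IgG RIP against input (0 and 0), no filter gave 3 higher and the Wald test 4; leaving out each library gave 0 to 7 higher and 0 to 2 lower.

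For the other chaperone genes over IgG (2 higher, 2 lower), no filter gave 5 higher, the Wald test 7 and 6, library size alone 4 lower, the 4 libraries alone 1 lower and the length offset 0 and 0, and leaving out each library 0 to 17 higher and 0 to 6 lower. Over input (9 higher, 1 lower) the 4 libraries alone gave 16 and 8, DESeq2 size factors 2 lower, library size alone 5, no filter 0, the Wald test 4 and the length offset 0; leaving out each library gave 0 to 17 higher and 0 to 5 lower. For IgG RIP against input (0 higher) no filter gave 1, the Wald test 3 and leaving out each library 0 to 10. The cause of these shifts was not tested.

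With a replicate block the members called were 2 higher and 19 lower over IgG, 6 and 11 over input, and 2 higher for IgG RIP against input. Over all genes the block gave 1066 higher and 784 lower over IgG, 1653 and 962 over input, and 18 and 7 for IgG RIP against input. Of the small heat shock messages 1 was then lower over IgG and 1 higher over input. The other chaperone genes with the block were 5 higher over IgG and 3 lower over input. Deviations of same-numbered libraries correlated at 0.13 between CPEB4 RIP and IgG RIP, -0.02 between CPEB4 RIP and input and 0.07 between IgG RIP and input, across 18054 genes, with 2 numbers.

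With 2 libraries a group, the number of libraries limits the precision; of the 39 members tested Hspb6 had the fewest counts, at most 113 in a library. Hspb7 was too shallow to test. Values of Hspa1a, Hspa1b, Hspb2 and members that overlap another gene rest on counting rules that the sources used here do not state.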

Other observations

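Hspa8 and Hsp90ab1 are the abundant constitutive members of the HSP70 and HSP90 families. The FPKM of Hspa8 relative to Hsp90ab1 in the same library was 0.493 and 0.508 after CPEB4 RIP, 0.901 and 0.893 after IgG RIP, and 1.25 and 1.32 in the input. The 3 groups did not overlap, and no test was run on this ratio, which was set up after the values were seen. Of the summed CPM of the 40 members, Hspa8 made up 14.2% ± 0.0159 (SD, n = 2) after CPEB4 RIP, 22.1% ± 0.528 after IgG RIP, and 27.0% ± 1.36 in the input.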
